A study of Mus musculus with 8 samples.

Results

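Subplate marker genes were examined in single cells of the embryonic mouse cerebral cortex. No measured level set membership of the list, but it was chosen with earlier results of these data known. It holds 7 genes known as subplate markers: Nr4a2, Ctgf, Cplx3, Nxph4, Lpar1, Moxd1 and St18. They are 7 of the 27998 genes of the count matrix, of which 18309 had at least 1 UMI (unique molecular identifier, standing for 1 captured transcript) in the cells used. Every one of the 7 is protein coding. The cells came from the transgenic strain Tg(Ebf2-EGFP)FB58Gsat, in which EGFP is driven from the Ebf2 promoter, and EGFP positive cells were sorted by FACS from E15.5 cortex. About 8 embryos of 2 timed-pregnant mice were pooled, and the labels name no treatment and no EGFP negative cells for comparison. The labels list 8 samples in 1 group, but the matrix is shared and does not say which sample a cell belongs to. There was therefore 1 library, no replicate and no test. All intervals are 95% intervals that cover counting error only.

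Subplate neurons are among the first neurons of the cortex. They are born into the preplate together with the Cajal-Retzius (CR) neurons, which secrete Reelin, and the preplate is later split by arriving cortical plate neurons into the layer 1 above and the subplate below. Subplate neurons then lie under layer 6, guide thalamic and corticofugal axons, and receive early synaptic input. Nr4a2 (Nurr1) encodes an orphan nuclear receptor that acts as a transcription factor, and St18 a zinc finger factor of the Myt1 family. Ctgf encodes a secreted matricellular protein, Nxph4 a secreted ligand of neurexins, and Lpar1 a G protein-coupled receptor for lysophosphatidic acid. Cplx3 encodes a complexin, which binds SNARE complexes at the synapse, and Moxd1 a relative of dopamine beta-hydroxylase.

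The matrix held 3000 cell barcodes, all different and with the same suffix, with 10718 to 76690 UMIs each. The 2513 cells with at most 25000 UMIs were used, and the 487 deeper ones (16.2%) were set aside. The kept cells had medians of 14976 UMIs, 3996 genes and 2.89% mitochondrial UMIs. Overlapping classes were read from the level of a single gene in each cell, at a cut of 5 UMIs per 10000: 288 Reln-high cells (11.5%), 1333 Rprm-high cells (53.0%) and 655 Fezf2-high cells (26.1%). Reln encodes Reelin, Rprm is a gene of deep-layer neurons, and Fezf2 encodes a transcription factor of subcortical projection neurons. The classes were checked against marker lists. In Reln-high cells all 8 of 8 CR markers were at least 2-fold higher than in other cells, beside 10.4% of all genes compared. In the same cells 5 of 9 deep-layer markers were lower, beside 6.99%. In Rprm-high cells 5 of 9 deep-layer markers were higher (Foxp2, Sox5, Crym, Zfpm2 and Tle4), beside 1.63%. In Fezf2-high cells 0 of 9 were, beside 0.531%, so that class is called here by its gene only. Rprm-high and Fezf2-high cells overlapped in 425 cells, and Reln-high cells overlapped with Rprm-high cells in 15 and with Fezf2-high cells in 1. EGFP transcripts were not analysed here.

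The 7 genes fell into well detected and nearly absent ones. Nr4a2 had 3218 UMIs in 1122 of the 2513 cells (44.6%), with a median of 2 UMIs and a maximum of 38 in cells where it was found. Nxph4 had 2001 UMIs in 1055 cells (42.0%), and its highest cell held 10. St18 had 567 UMIs in 416 cells (16.6%). A UMI of Nr4a2 or Nxph4 was thus found over much of the sorted population, so that neither marked a small separate group by detection alone. The others were rare: Lpar1 had 79 UMIs in 54 cells (2.15%), Ctgf 31 UMIs in 26 cells (1.03%), Moxd1 9 UMIs in 5 cells and Cplx3 3 UMIs in 3 cells. A gene entered the comparison of classes with at least 10 UMIs in total, a minimum that 5 of the 7 passed. Cplx3 and Moxd1 did not, and are described cell by cell further on.

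Nr4a2 (ENSMUSG00000026826, GRCm38 chromosome 2, 57106830 to 57124003, minus strand) followed Rprm and was low where Reln was high. Its level, in summed UMIs per 1000000 (CPM), was 114.6 (110.0 to 119.4) in Rprm-high cells and 47.4 in all other cells. The log2 ratio was 1.28 (1.16 to 1.39), a 2.42-fold higher level. In Reln-high cells the level was 16.9 CPM (13.5 to 20.97), against 91.5 in other cells, with a log2 ratio of -2.43 (-2.76 to -2.12). Fezf2-high cells, at 71.8 CPM, were close to the remaining cells, at 85.7 CPM, but with cells past another cut left out of the class the log2 ratio was -1.09. Split into cells past 1 cut only, the order was clear: 127.2 CPM in cells high for Rprm alone, 89.6 in those high for both Rprm and Fezf2, 65.4 in those past none of the 3 cuts, 40.1 with Fezf2 alone and 12.2 with Reln alone. No neighbours in this order had overlapping intervals.

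The relation of Nr4a2 to Rprm was graded and did not begin at the cut. From cells with under 1 Rprm UMI per 10000 to those with 20 or more, the Nr4a2 level ran over 6 steps through 36.3, 44.1, 71.1, 92.8, 123.0 and 158.3 CPM. The cells next to the cut were many, with 257 between 3 and 5 Rprm UMIs per 10000 and 552 between 5 and 10. Over steps of Reln the level of Nr4a2 stayed between 86.4 and 93.4 CPM below the cut, was 51.0 CPM in the 32 cells between 5 and 10, and was 12.9 and 13.1 CPM in the 2 highest steps. Those 32 cells held 26 of the 84 Nr4a2 UMIs found in all Reln-high cells. Cells with much Nr4a2 were seldom Reln-high: of the 173 cells with at least 5 UMIs, 129 were Rprm-high and 1 was Reln-high. At a minimum of 10 UMIs there were 43 cells, of which 26 were Rprm-high, 16 were past none of the cuts, and 0 were Reln-high. Rprm-high cells were thus 60.5% of these, against 53.0% of all kept cells. Cells past none of the cuts were 37.2%, against 26.9%. The highest cell, with 38 UMIs, was past none of the cuts, and the maximum in Rprm-high cells was 20. The very highest Nr4a2 counts were therefore not confined to Rprm-high cells.

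**Figure D1:**
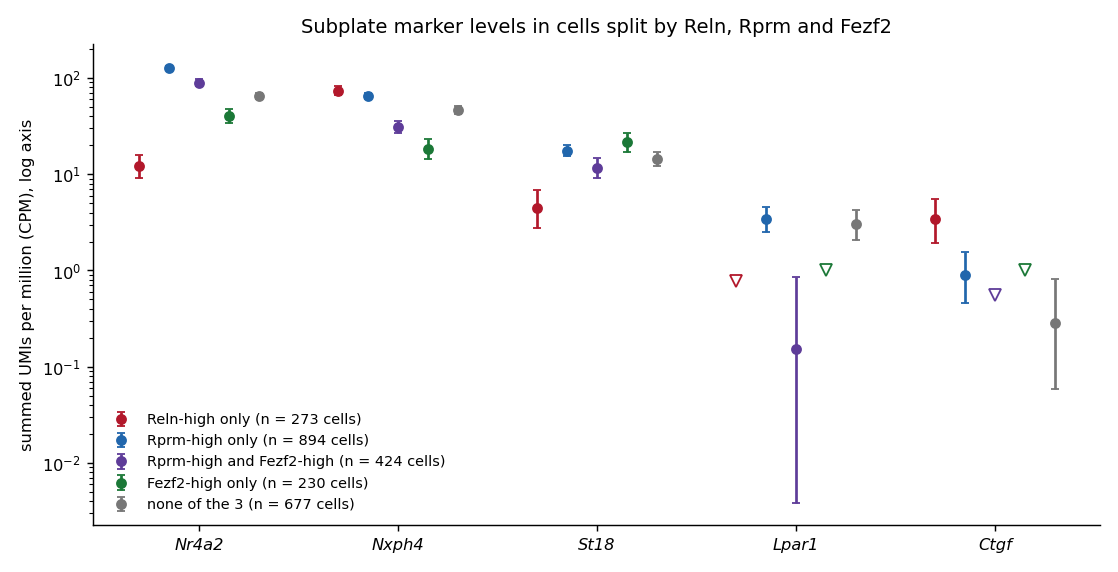
Level of the 5 genes with at least 10 UMIs, in CPM on a log axis, for cells past 1 cut, past both the Rprm and Fezf2 cuts, or past none; 15 Reln-high cells that passed another cut as well are left out. Points are levels with 95% Poisson intervals, and open triangles are the upper bounds where no UMI was found. Nr4a2 was at 12.2 CPM with Reln alone and 127.2 with Rprm alone, while Nxph4 was at 73.8 and 65.3.

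Nxph4 (ENSMUSG00000040258, chromosome 10, 127525473 to 127534559, minus strand) had another pattern: it was as high in Reln-high cells as in cells high for Rprm alone, and low with Fezf2. Its level was 73.6 CPM (66.2 to 81.5) in Reln-high cells and 47.7 in other cells, a log2 ratio of 0.62 (0.46 to 0.79) that did not reach 2-fold. In Rprm-high cells it was 54.2 CPM against 47.6, a log2 ratio of 0.19 (0.06 to 0.32). In Fezf2-high cells it was 26.4 CPM (23.4 to 29.8) against 59.8, a log2 ratio of -1.18 (-1.37 to -0.99). The split classes showed that Fezf2 went with lower Nxph4 inside the Rprm-high cells too, with 65.3 CPM for Rprm alone and 31.0 for Rprm with Fezf2, and the lowest level, 18.4 CPM, was in cells high for Fezf2 alone. Reln alone, at 73.8 CPM, and Rprm alone had overlapping intervals.

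Over steps of Fezf2 the level of Nxph4 was 80.9, 47.0, 36.6, 26.9 and 24.3 CPM, from under 1 to between 10 and 20 UMIs per 10000, so that the largest difference lay below the cut. The last of these steps held 114 cells with 42 Nxph4 UMIs, and its interval overlapped that of the step before it. Over steps of Rprm there was no single direction: the level was 61.6 CPM in cells with under 1 Rprm UMI per 10000, 37.0 between 3 and 5, and 78.1 at 20 or more.

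Nr4a2 and Nxph4 therefore stood in very different proportion in different cells. In Reln-high cells there were 365 Nxph4 UMIs and 84 Nr4a2 UMIs, a ratio of 4.35 (3.42 to 5.58). In Rprm-high cells there were 1096 and 2318, a ratio of 0.473 (0.440 to 0.508), and in Fezf2-high cells the ratio was 0.368 (0.319 to 0.424). The haemoglobin genes Hbb-bs and Hba-a1, taken here as a reference for free RNA, had ratios of 1.08, 0.985 and 0.941 in the same classes. This left out 1 cell that held 16104 UMIs of the erythroid list. Their ratio was 0.851 (0.662 to 1.09) in cells high for both Rprm and Fezf2, 1.25 (1.02 to 1.54) in cells past none of the cuts, and 1.66 (1.11 to 2.51) in the 252 cells highest for upper-layer markers, so that it was not the same in all cells. The part of free RNA in the Nxph4 and Nr4a2 ratios was not tested.

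**Figure D2:**
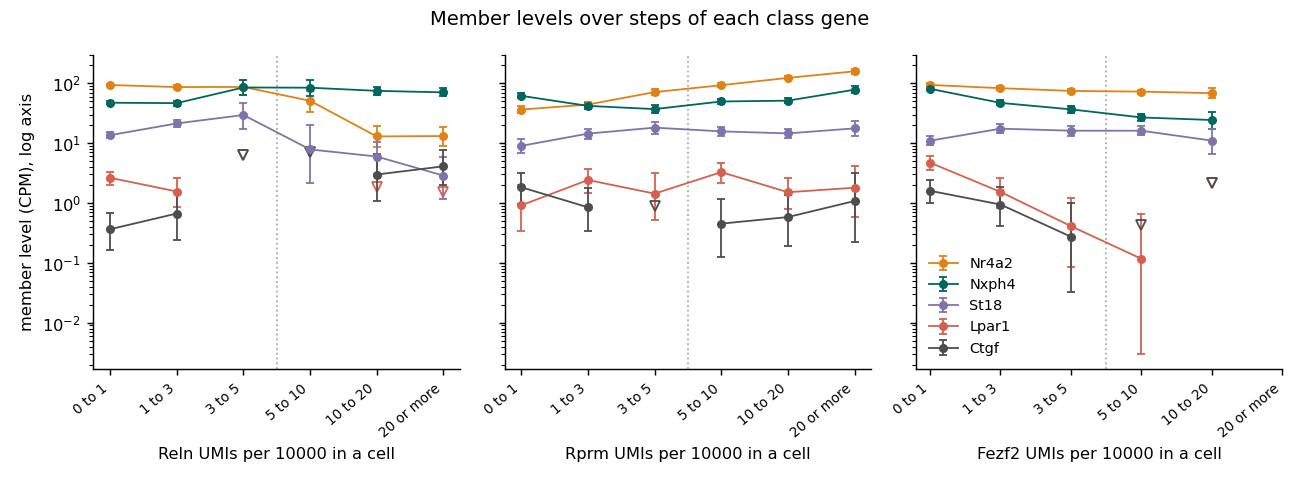
Levels of 5 genes, in CPM on a log axis, over steps of Reln, Rprm and Fezf2 UMIs per 10000 in a cell; the dotted line is the cut of 5 and open triangles are upper bounds where no UMI was found. Error bars are 95% Poisson intervals, and steps of fewer than 20 cells are not drawn. Nr4a2 was at 36.3 CPM in the lowest and 158.3 in the highest Rprm step, and Nxph4 at 80.9 CPM in the lowest Fezf2 step and 24.3 in the highest drawn.

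St18 (ENSMUSG00000033740, chromosome 1, 6487231 to 6860940, plus strand) was low in Reln-high cells and differed little between Rprm-high or Fezf2-high cells and their remainders. It had 4.64 CPM (2.94 to 6.96) in Reln-high cells, from 23 UMIs, and 15.9 in other cells, a log2 ratio of -1.78 (-2.45 to -1.17). In Rprm-high cells it had 15.48 CPM against 13.4 in the others, and in Fezf2-high cells 15.3 against 14.2. Both of these intervals of the log2 ratio included 0, reaching from -0.03 to 0.46 and from -0.17 to 0.38. Where Fezf2 was high without Rprm, St18 had 21.4 CPM (17.0 to 26.7), and where both were high 11.7 CPM (9.23 to 14.6), 2 intervals that did not overlap. In that respect St18 was unlike Nr4a2 and Nxph4, which were both lower with Fezf2 alone than with Fezf2 and Rprm.

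Lpar1 (ENSMUSG00000038668, chromosome 4, 58435255 to 58553898, minus strand) was found in cells high for Rprm without Fezf2 and in cells past none of the cuts. Its 79 UMIs lay in 54 cells, and the highest cell held 5. In Rprm-high cells it had 47 UMIs, or 2.32 CPM, against 1.68 CPM in the others, and the interval of the log2 ratio (-0.21 to 1.16) included 0. The direction turned with a cut of 10 (-0.47) and against cells past none of the cuts (-0.37). In the cells highest for upper-layer markers, which were not kept apart from the classes, the level was 4.30 CPM (2.46 to 6.98), no lower than in Rprm-high cells. Among cells high for Rprm alone, 31 held 46 UMIs (3.44 CPM, 2.52 to 4.59), while the cells high for both Rprm and Fezf2 held 1 UMI. In all Fezf2-high cells there was 1 UMI, or 0.0972 CPM, against 78 UMIs and 2.70 CPM in other cells, a log2 ratio of -4.79 with a wide interval from -10.12 to -2.27. In Reln-high cells 0 UMIs were found where other cells had 2.31 CPM, so that the level was at least 3.81-fold lower, taking 3 UMIs over the class as the limit that a count of 0 allows. The cells with Lpar1 carried a summed radial glia list (8 genes, none at 0) of 929 CPM, against 199 CPM in cells without it. This came from few cells: 7 of the 54 had at least 20 radial glia UMIs, against 25 of the 2459 cells without Lpar1, and the median was 1 UMI in the former and 2 in the latter. The interneuron list had 595 CPM in the cells with Lpar1 against 8.95 in those without, and 8.98 without its highest cell. The part of these cells in the Lpar1 levels was not tested.

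Ctgf (ENSMUSG00000019997, named Ccn2 in the annotation, chromosome 10, 24595442 to 24598683, plus strand) was the single gene of the 7 that was at least 2-fold higher in Reln-high cells. Of its 31 UMIs, 16 lay in 14 Reln-high cells, 12 in 9 Rprm-high cells and 3 in 3 cells past no cut, and no cell held more than 3. The level was 3.23 CPM (1.84 to 5.24) in Reln-high cells against 0.438 in other cells, a log2 ratio of 2.88 (1.77 to 4.0). No UMI was found in the 655 Fezf2-high cells, at least 3.68-fold lower than the 1.07 CPM of other cells. Of the 26 cells with Ctgf, 14 had an Nxph4 UMI and 7 an Nr4a2 UMI. Their CR marker list had 1633 CPM, against 461 in cells without Ctgf, while the vascular and meningeal list, whose cells also make Ctgf, had 4.80 CPM from 2 UMIs, with 8 of its 10 genes at 0, against 3.68. In Reln-high cells, however, that list had 8.47 CPM (6.10 to 11.4), from 42 UMIs, against 3.696 over all cells. Of its 6 genes compared, 3 were higher (Col1a1, Pecam1 and Pdgfrb) and 0 lower, beside 10.4% and 6.99% of all genes compared. The radial glia list had 542 CPM in the cells with Ctgf, or 293 without its highest cell, against 211 in those without. The part of these cells in the Ctgf levels was not tested.

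Cplx3 was close to the limit of detection. Its 3 cells held 1 UMI each, and each of them also held Nxph4, with 5, 4 and 2 UMIs. Their Nr4a2 counts were 6, 0 and 2. None was Reln-high, and 1 of the 3 was Rprm-high. Over all 2513 cells this was 0.0765 CPM (0.0158 to 0.223).

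Moxd1 was found in 5 cells with 3, 2, 2, 1 and 1 UMIs, in which 1 Nxph4 UMI and no Nr4a2 UMI was present. The 3 cells with 2 or more Moxd1 UMIs held 94, 315 and 155 UMIs of the radial glia list, and 30, 56 and 47 of the oligodendrocyte lineage list (Olig1, Olig2, Sox10 and Pdgfra). Of the others, 1 held 470 UMIs of the interneuron list and 1 held no UMI of any of these lists. The 5 cells had 133 of the 157 oligodendrocyte lineage UMIs of the kept cells. Moxd1 was thus found with markers of other cell types in 4 of its 5 cells, and whether those cells were doublets was not tested.

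Counted as calls, a gene was taken as higher or lower in a class at a ratio of at least 2-fold with an interval that excluded no change. In Reln-high cells 1 of the 5 genes was higher (Ctgf), against 10.4% of the 14130 genes compared, and 3 were lower (Nr4a2, St18 and Lpar1), against 6.99%. In Rprm-high cells 1 was higher (Nr4a2), against 1.63% of genes, and 0 were lower, against 6.86%. In Fezf2-high cells 0 were higher, against 0.531% of genes, and 3 were lower (Nxph4, Lpar1 and Ctgf), against 7.91%. The median log2 ratio of the 5 was -1.78, 0.21 and -1.18 in the 3 classes, beside 0.13, -0.10 and -0.15 over all genes compared. With so few genes these shares describe the list and do not set it apart. Nr4a2 was the one gene of the list higher in Rprm-high cells, and against cells past none of the 3 cuts its log2 ratio was 0.81, below 2-fold. Against that same set Nxph4 in Fezf2-high cells was also less than 2-fold lower, with a log2 ratio of -0.81.

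Detection was compared at 1 depth, since the classes differed in depth, with medians of 17198, 14445 and 15294 UMIs in Reln-high, Rprm-high and Fezf2-high cells. Each cell was thinned to 10700 UMIs, which every cell reached. Nr4a2 was then found in 53.5% of Rprm-high cells (50.8 to 56.2%; 60.5% before thinning) and in 13.2% of Reln-high cells (9.51 to 17.7%; 17.4% before). Nxph4 was found in 42.7% of Reln-high, 38.9% of Rprm-high and 23.8% of Fezf2-high cells, where it had been 55.2%, 46.6% and 31.0% at full depth. St18 was found in 5.56%, 13.7% and 12.1% of them. Hba-a1, taken as the reference for free RNA, was found in 18.1%, 18.5% and 17.4% of the same classes, with overlapping intervals, and in 10.3% (6.85 to 14.8%) of the cells highest for upper-layer markers. The shares of Nr4a2 differed between all 3 classes beyond their intervals, and that of Nxph4 was lower in Fezf2-high cells than in both others, which overlapped. St18, Lpar1 and Ctgf had shares under that of Hba-a1 in each of the 3, and so had Nr4a2 in Reln-high cells. Such shares are given as detection of a UMI and were not read as expression. The share of St18 was nevertheless lower in Reln-high cells (3.21 to 8.87%) than in Rprm-high cells (11.9 to 15.7%). Those upper-layer cells, with a median of 14133 UMIs, gave 20.2% for Nr4a2, 23.4% for Nxph4, 6.35% for St18 and 3.57% for Lpar1. Nxph4 in Fezf2-high cells and Lpar1 in Rprm-high cells (2.25%) were thus not above those upper-layer cells by more than their intervals. The upper-layer cells were not kept apart from the classes, with up to 49 Reln and 98 Rprm UMIs in a cell. Their radial glia list had 419 CPM, against 214 over all cells. They are therefore no clean reference for free RNA, whose part in these shares was not tested. Ctgf was found in 2.78% of Reln-high cells (1.21 to 5.40%) and 0.60% of Rprm-high cells (0.259 to 1.18%), 2 intervals that did not overlap. It was found in 0 of the 655 Fezf2-high cells, which allows a share of cells with a UMI of up to 0.458% if 3 cells are taken as the limit (0.562% as the upper Clopper-Pearson bound). Lpar1 was found in 0 of the 288 Reln-high cells, which allows up to 1.04% by the same limit (1.27%).

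**Figure D3:**
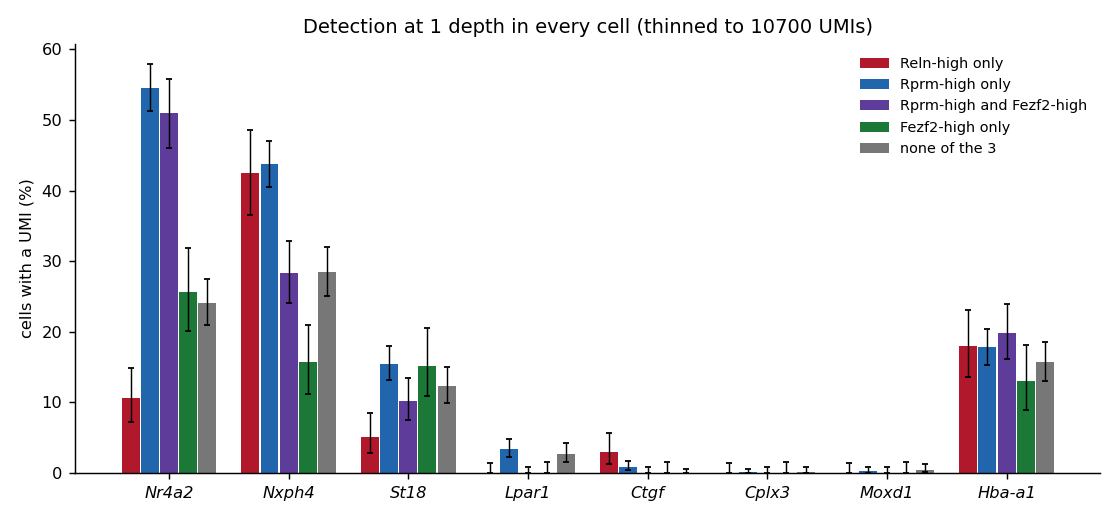
Share of cells with at least 1 UMI of each gene after thinning every cell to 10700 UMIs, by class, with exact Clopper-Pearson 95% intervals; Hba-a1, on the right, is the reference for free RNA. Nr4a2 lay at 10.6% with Reln alone and 54.6% with Rprm alone, while Hba-a1 lay between 13.0% and 19.8% in the 5 classes.

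The next question was whether single cells carried several of the 7 genes together. At the common depth 962 cells had none of them, 981 had 1, 483 had 2, 82 had 3 and 5 had 4. At least 3 were found in 87 cells (3.46%, 2.78 to 4.25%). The combinations were few: Nr4a2 with Nxph4 and no other in 315 cells, those with St18 in 56, and those with Lpar1 in 20. Of the 87 cells, 71 were Rprm-high and 2 were Reln-high. The share with at least 3 was 7.16% (5.56 to 9.05%) in cells high for Rprm alone, 1.65% (0.666 to 3.37%) with both Rprm and Fezf2, 1.92% in cells past no cut and 0.694% in Reln-high cells. The shares of single genes differed as well, with Nr4a2 in 54.6% and Nxph4 in 43.7% with Rprm alone, and in 50.9% and 28.3% with both Rprm and Fezf2. The share with at least 3 that the single shares alone would give was not computed. Before thinning, the 87 cells were shallower than those with none of the genes, with medians of 13374 and 15656.5 UMIs. The share with both Xist and Y-linked UMIs, which a cell pair of both sexes would show, was 9.20% in the former and 11.6% in the latter.

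Of the 21 pairs of genes, 4 were found together more often than apart, in that the second gene had a higher share in cells with the first than in cells without it and the intervals did not overlap. For Nr4a2 and Nxph4, Nxph4 was found in 41.4% (38.3 to 44.6%) of cells with Nr4a2 and in 29.95% (27.7 to 32.3%) of cells without, and 399 cells had both where the product of their shares gives 331.1. Lpar1 was in 3.11% of cells with Nr4a2 and 1.16% of cells without, and in 3.59% of cells with Nxph4 and 1.03% of cells without. Within each class, however, the intervals for Nr4a2 and Lpar1 overlapped, as with 3.09% and 1.29% in Rprm-high cells, while those for Nxph4 and Lpar1 stood apart in Rprm-high cells, at 4.44% and 0.859%. St18 was in 16.0% of cells with Nxph4 and 10.7% of cells without. Its intervals overlapped in Rprm-high cells (15.6% and 12.5%) and in Reln-high cells (4.88% and 6.06%). They stood apart with Fezf2 alone (36.1% and 11.3%) and in cells past no cut (19.7% and 9.30%). Over all cells the intervals of the other 17 pairs overlapped, and Nr4a2 with St18 was among them. Most of the 17 held Ctgf, Cplx3 or Moxd1, found in 16, 2 and 5 cells at this depth, so their intervals were wide. How often pairs of other genes would stand apart in this way was not computed, so the count of 4 describes the list only. The Pearson correlation of Nr4a2 with Nxph4 over the 2513 cells was 0.17 on the log(1 + UMIs per 10000) scale, a weak relation that sparse counts limit.

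The pairing of Nr4a2 with Nxph4 was found in some classes and not in others. In cells high for Rprm alone, Nxph4 was in 52.0% (47.5 to 56.6%) of cells with Nr4a2 and in 33.7% (29.2 to 38.6%) of those without. In cells high for both Rprm and Fezf2 the shares were 27.8% and 28.8%, and in cells high for Reln alone 37.9% and 43.0%, with overlapping intervals in both. The difference between classes was not tested. The pair was more frequent in cells with Lpar1 than in cells without it. Of the 48 cells with Lpar1 at the common depth, 24 had both Nr4a2 and Nxph4 (50.0%, 35.2 to 64.8%), against 375 of 2465 cells without it (15.2%, 13.8 to 16.7%). The classes were unlike in this: 30 of the 48 were high for Rprm alone, where 254 of 894 cells held the pair. The shares were not compared within a class. For St18 the shares of cells with the pair were 18.7% and 15.47% and for Ctgf 25.0% (4 of 16 cells, 7.27 to 52.4%) and 15.8%, with overlapping intervals in both. Both of the cells with Cplx3 at this depth held the pair.

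**Figure D4:**
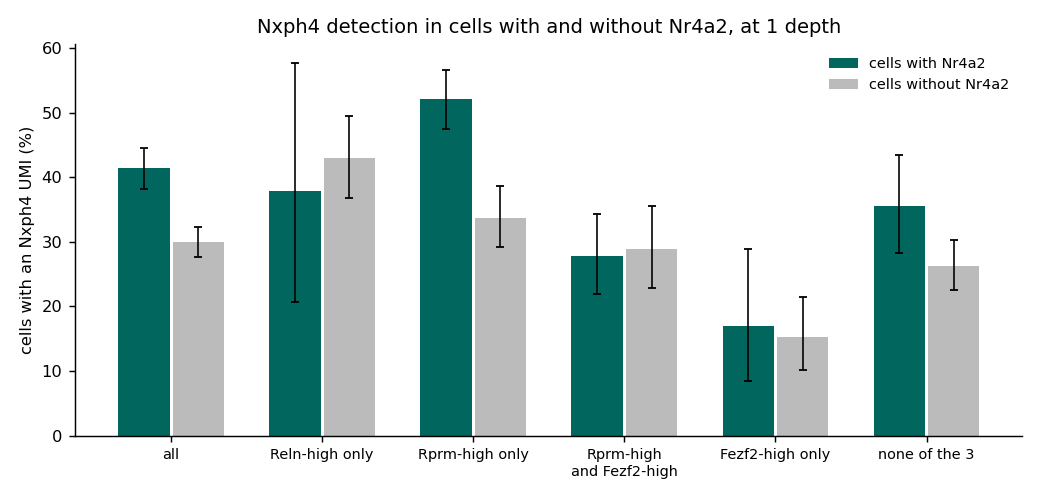
Share of cells with an Nxph4 UMI among cells with and without Nr4a2, all thinned to 10700 UMIs, over all cells and by class, with exact Clopper-Pearson 95% intervals. The 2 bars stood apart over all cells (41.4% and 29.95%) and with Rprm alone (52.0% and 33.7%), and overlapped in the other 4 classes.

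Cells with at least 3 of the genes, taken as a sum, also differed from cells with none in genes not used to choose them. How many single cells carried such a gene was not counted. The sets were unlike in class: 71 of the 87 and 370 of the 962 cells were Rprm-high, and 2 and 130 were Reln-high. Among 10028 genes of the thinned cells, ranked with a pseudocount of 10 CPM, the highest ratio over cells with none of the 7 was that of Caln1, a calcium-binding protein of the calneuron family, at 194 against 20.01 CPM (log2 ratio 3.28, 2.98 to 3.58). Kcnab1, a beta subunit of voltage-gated potassium channels, was second at 94.5 against 7.19 CPM. Cav1, the main protein of caveolae, followed at 63.4 against 4.47 CPM. The others of the first 10 were Nfe2l3, Epha7, Fam163b, Ngfr, Kitl, Abca8a and Akap7, with log2 ratios from 1.999 for Akap7 to 3.40 for Fam163b. Epha7 encodes an ephrin receptor, Ngfr the low-affinity neurotrophin receptor and Kitl the ligand of the receptor Kit. Of a list of other subplate genes, Kcnab1 and Abca8a were among these 10. Further genes of that list were also higher, among them Cdh10 (log2 ratio 2.53), Unc5c (2.51) and Hs3st4 (1.80). In the other direction, Syt4 had a log2 ratio of -1.88, Igfbpl1 of -1.02 and Tmem163 of -0.70. The commonest combinations of at least 3 genes, in 56 and 20 cells, held Nxph4, which the cells with none lacked by definition. Caln1, Kcnab1, Nfe2l3 and Epha7 were also the genes most correlated with Nxph4. The part of class and of Nxph4 itself in these ratios was not tested.

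The genes most like each member over the 2513 cells were ranked by Pearson correlation. Nr4a2 was most like Lmo3 (0.37), Mef2c (0.37), B3gat1 (0.36), Hs3st4 (0.35) and Sybu (0.35), and Nxph4 most like Caln1 (0.37), Kcnab1 (0.35), Nfe2l3 (0.35), Epha7 (0.32) and 6330403K07Rik (0.30). The 2 lists of 5 had no gene in common. Lpar1 was most like Gas1 (0.28), St18 most like Lcorl (0.22) and Ctgf most like Tmem163 (0.16). The points are cells of 1 library and share its depth and base composition. The order for Cplx3 and Moxd1 rests on 3 and 5 cells and is not given.

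Other subplate genes, from a list of 17 of which 16 had enough UMIs, did not move as 1 group either. In Rprm-high cells 4 of 16 were at least 2-fold higher (Hs3st4, Kcnab1, Zfpm2 and Trh) and 1 was lower (Tmem163), beside 1.63% and 6.86% of all genes compared. In Reln-high cells 1 was higher and 5 were lower, beside 10.4% and 6.99%. The higher one was Tmem163, a zinc transporter of vesicles, at 458.5 CPM against 26.4 in other cells. Among the lower ones Hs3st4, a heparan sulfate sulfotransferase, had 13.7 against 90.6 CPM, and Kcnab1 had 5.24 against 23.8. In Fezf2-high cells 0 were higher and 8 were lower, beside 0.531% and 7.91%, among them Kcnab1 at 7.87 against 26.3 CPM and Tmem163 at 11.4 against 106. The list's median log2 ratio was -0.71, 0.24 and -0.85 in Reln-high, Rprm-high and Fezf2-high cells, beside 0.13, -0.10 and -0.15 over all genes compared. Kcnab1 was low in both Reln-high and Fezf2-high cells, as Lpar1 was.

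Relatives of the 7 genes were like them in some classes and unlike them in others, and each is given as a single gene. The nuclear receptors Nr4a1 and Nr4a3 were both lower in Reln-high cells, at 34.1 against 89.4 CPM and 9.48 against 37.8, as Nr4a2 was. In Fezf2-high cells, where Nr4a2 was close to the other cells, both were higher by less than 2-fold (log2 ratios 0.82 and 0.81). Cyr61, a relative of Ctgf, was lower in Reln-high cells, where Ctgf was higher, with 5.85 CPM against 39.9 in others. In Rprm-high cells Cyr61 was higher, at 47.9 CPM against 22.5, while Ctgf was called neither higher nor lower there. Nxph3, a relative of Nxph4, was at 184 CPM in Reln-high cells against 73.7 in others (log2 ratio 1.32), a larger difference than that of Nxph4. Nxph1 was lower in Rprm-high and in Fezf2-high cells. Cplx1 and Cplx2 were well detected, with 3688 and 2185 UMIs where Cplx3 had 3, and both were lower in Reln-high cells. Myt1l, a relative of St18, was lower in Reln-high cells too, at 70.8 against 145 CPM. Lpar2, Lpar4 and Lpar6 had 97, 78 and 71 UMIs and were called in 0 of the 3 classes. Enpp2, the enzyme that makes lysophosphatidic acid, was higher in Reln-high cells, where no Lpar1 UMI was found, at 3.63 CPM (18 UMIs) against 1.66 in others. It was at 0.841 CPM in Rprm-high cells. Cells past none of the cuts had both genes, with Enpp2 at 3.20 CPM (34 UMIs) and Lpar1 at 3.01 CPM (32 UMIs).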

How the data were processed

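Ebf2-EGFP positive E15.5 cortical cells were profiled on the 10x Chromium platform. The authors deposited unnormalized UMI counts for each gene and barcode. Their processing notes name Cell Ranger 2.0.0, Seurat 2.0 and mm10. All cells are in 1 matrix that does not assign them to the 8 labelled samples, so no test was made and levels are CPM of summed UMIs (1000000 UMIs). Clusters were not made, and a doublet caller was used only in an alternative; cells over 25000 UMIs were left out. The cut of 5 per 10000 was given for Reln and taken over for Rprm and Fezf2. The genes and lists were chosen with earlier results of these data known, and the minimum of 10 UMIs after seeing the data. Named were all 7 genes, list genes at least 2-fold higher or lower, the 5 most correlated genes (at least 100 UMIs, in at least 5% of cells) and the 10 highest ratios in cells with at least 3 genes. Intervals were exact Poisson (levels), conditional binomial (ratios) and Clopper-Pearson (shares). Coordinates come from GENCODE for GRCm38, where 27645 of 27998 identifiers were found. Python 3.11.15, scipy 1.17.1 and scanpy 1.11.5 were used, and the ratio and thinning steps were tested on simulated data. The alternatives tried were all barcodes, other cuts, exclusive classes, mean levels per barcode, removal of the 2.3% highest Scrublet scores, a comparison with cells past no cut, a filter of 2000 genes and 5% mitochondrial UMIs, other thinning, and 3 added after seeing the data: at least 100 UMIs, no top cell, and no cells with at least 5 Xist and 2 Y-linked UMIs. Some results under the rule for named genes are not reported here.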

Additional observations from a re-analysis of the deposited data

Results flagged for a closer look

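The 487 cells over 25000 UMIs were outside the comparisons, and 5 of the 7 genes were found in them above the limit that a count of 0 allows. Nr4a2 had 51.1 CPM there, against 82.0 in the kept cells, and Nxph4 38.0 against 51.0. Lpar1 had 0.557 CPM against 2.01. St18 was higher in the deep cells, at 19.1 against 14.5 CPM. Ctgf was higher as well, at 2.06 CPM from 37 UMIs in 27 cells, against 0.790, and the log2 ratio was 1.38 (0.65 to 2.12). Of the deep cells 217 (44.6%) were Reln-high, and 34 of the 37 Ctgf UMIs lay in 24 of them. Cplx3 had 0 UMIs and Moxd1 3.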

How the results depend on the processing

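No paired analysis was possible because the cells carry no sample label, and no replicate could be left out. The call of Ctgf as higher in Reln-high cells rests on 31 UMIs: with at least 100 UMIs required, 0 genes were higher. In Rprm-high cells 2 genes were higher when classes excluded each other (Nr4a2 and Lpar1) and 0 when compared with cells past no cut, against 1. The count of genes lower in Rprm-high cells was 1 (Ctgf) with all barcodes and with a cut of 3, against 0. In Fezf2-high cells, 3 genes were lower, against 1 with a cut of 10 (Nxph4), 1 when compared with cells past no cut (Lpar1) and 1 with at least 100 UMIs (Nxph4). The share of cells with at least 3 of the genes followed depth, at 0.915% when thinned to 5000 UMIs and 5.45% unthinned, and 1 pair was left of 4 at 5000 UMIs (Nr4a2 with Nxph4). That share stayed inside its interval under every other alternative, while smaller changes in the counts are not all listed here. Lpar1, with 79 UMIs, could not be called with at least 100 UMIs required, and so left the genes lower in Reln-high cells. The shares by class and the combinations were not recomputed at other depths. Of 157 log2 ratios under an alternative, 129 stayed inside the interval of the value given, 28 moved and 0 of the called ones changed sign. With all barcodes Nr4a2 in Reln-high cells moved to -1.76, and Nxph4 in Fezf2-high cells to -0.90, under 2-fold. The causes of these changes were not tested. Depth limits Cplx3, Moxd1, Ctgf and Lpar1 in particular.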
